A study of Mus musculus with 8 samples.

Results

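The 47 genes described here encode ribosome assembly and nucleolar factors, and they were compared between Cop1 knockout and wild-type FT1CL cells. They were taken as a list of gene symbols that covers the steps of ribosome production: 2 subunits of RNA polymerase I, 5 nucleolar scaffold and general factors, 4 proteins of the box C/D particle, 4 of the box H/ACA particle, 18 factors of the small subunit and 14 of the large subunit. All 47 were among the 13378 genes of the deposited junction table, and all 47 had a mean of at least 1 RPM (junction reads per 1000000 of the library), the level required for testing. FT1CL is a mouse acute myeloid leukemia line, and 8 RNA sequencing libraries were made from it. The 4 knockout libraries came from cells of genotype Cop1 ko/ko, treated with 4-hydroxytamoxifen, and the 4 wild-type libraries from untreated cells of genotype Cop1 +/+. Deletion relies on a tamoxifen-dependent Cre recombinase driven from the Rosa26 locus. Knockout and drug therefore changed together and cannot be told apart. Per the series' design text, both groups descend from bone marrow of an 8-week-old animal with floxed Cop1 and that Cre, taken 5 days after 150 mg/kg of 5-fluorouracil and transduced with a retrovirus carrying Trib1, and both grew with 10% serum and 5 ng/mL of interleukin-3. A single line was studied, and the labels do not say whether libraries of a group were separate cultures, so the spread that p-values measure may be only technical.

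Ribosomes are built in the nucleolus. RNA polymerase I copies the ribosomal DNA into a long precursor, on which small nucleolar RNA particles of the box C/D and box H/ACA classes place methyl groups and pseudouridines, while processing complexes cut and fold the precursor into the RNAs of the small and the large subunit. The genes of these factors are known for moving together with the growth rate of a cell, and MYC is a textbook activator of many of them. In leukemia they have drawn interest because NPM1, a nucleolar chaperone, is among the genes most often mutated in the human disease.

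Cop1, the ubiquitin ligase gene that was deleted, gave 81.3, 70.3, 76.5 and 66.7 RPM in knockout libraries 1 to 4, against 159, 162, 166 and 162 RPM in wild-type libraries 1 to 4. The groups did not overlap, and the log2 fold change, knockout minus wild type, was -1.13 (adjusted p = 4.91e-04, SE 0.08). Trib1, the gene on the retrovirus, gave 706, 1289, 390.2 and 1379 RPM in knockout libraries 1 to 4, against 505, 720.2, 199 and 359.9 RPM in wild-type libraries 1 to 4, with a log2 fold change of 1.06 (adjusted p = 0.164, SE 0.49), and an adjusted p of 0.0213 once replicate number was added as a block. Knockout libraries held 17333302 to 22469109 junction reads and wild-type libraries 17811247 to 20981993, with no difference beyond the spread (exact permutation p = 0.600, two-sided, n = 4 each). Single junctions were often nearly empty in some libraries although the rest of the gene was well read. A junction value is called dropped here when it held at most 6 reads where the other junctions of the gene predicted at least 100, which made up 8.62 ± 0.297% of predicted values in knockout and 8.50 ± 0.367% in wild type (SD, n = 4, exact permutation p = 0.657). Knockout library 4 stood apart within its group, most clearly in neutrophil granule genes (618 RPM, and 5846 to 12540 RPM in knockout libraries 1 to 3). Wild-type library 4 had the least of these genes in its group, 40.8 RPM. It did not stand apart in them, as wild-type libraries 1 to 3 had 75.0, 75.2 and 144 RPM. Counts are given with and without both libraries numbered 4. All 12 myeloid and progenitor markers listed for the line had junction rows, against 5 of 8 T cell and 2 of 7 B cell markers. Junction reads of the T cell markers summed to 7.17 to 14 RPM in knockout and 13.9 to 39.6 RPM in wild type, and those of the B cell markers to 0.878 to 2.83 RPM in knockout and 0.952 to 3.38 RPM in wild type.

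Most of the ribosome assembly factors fell in Cop1 knockout cells, and none of the 47 was called higher. Summed over all junctions of each gene, 29 of 47 were lower in knockout at an adjusted p under 0.05 (limma on log2(RPM + 1), Benjamini-Hochberg over 11003 genes), where 12.1% of all genes tested were lower, and 0 were higher, where 8.49% of all genes tested were higher. The median log2 fold change of the 47 was -0.58, beside -0.07 over all genes tested. When every junction with a dropped value was left out, 44 of 47 were lower, with 17.1% of all genes as background, 0 were higher, with 10.8% as background, and the medians were -0.61 for the factors and -0.07 for all genes. The 3 factors that were not called then were Noc4l, Bop1 and Nip7. Over the junctions that remained, the 47 genes together held 6343, 6928, 5860 and 8099 RPM in knockout libraries 1 to 4, against 9487, 10288, 10355 and 11028 RPM in wild-type libraries 1 to 4. Knockout library 3 was the lowest and knockout library 4 the highest of its group, yet all 4 lay below every wild-type library. The knockout mean was 6807 ± 966 RPM and the wild-type mean 10289 ± 631 RPM (SD, n = 4 each), so knockout stood at 66.2% of wild type. In such sums, genes with more reads and more junctions weigh more. Ncl weighed the most, with a mean of 1778 RPM in knockout and 2649 RPM in wild type. In bulk RNA, fewer cells that express a gene and less of its RNA per cell cannot be told apart, and RPM is a share of all junction reads, not an amount per cell.

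The count depended on which libraries entered. With all junctions it was 17 without knockout library 3, 18 without knockout library 1, wild-type library 2 or wild-type library 4, and 36 without knockout library 4 (15.9% of all genes lower). Over all genes, 706 to 1742 of the 10939 to 11030 tested were lower on leaving out each library in turn. The count of factors was 34 without both libraries numbered 4 (14.1% of all genes), 34 with the replicate number as a block (15.7%) and 24 under TMM scaling (8.83% of all genes lower, 9.92% higher), which shifted the median of all genes by less than 0.1 on the log2 scale. Without junctions that hold a dropped value it was 31 to 47 on leaving out each library in turn (1233 to 2367 of 10823 to 10922 genes), 46 with the block (23.0% of all genes), 46 without both libraries numbered 4 (20.6%) and 38 after TMM (13.0%). Of the 26 factors with no dropped value 21 were lower, or 25 when dropped junctions were left out of all genes, and of the 21 with a dropped value 8 were lower, or 19 then.

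**Figure D1:**
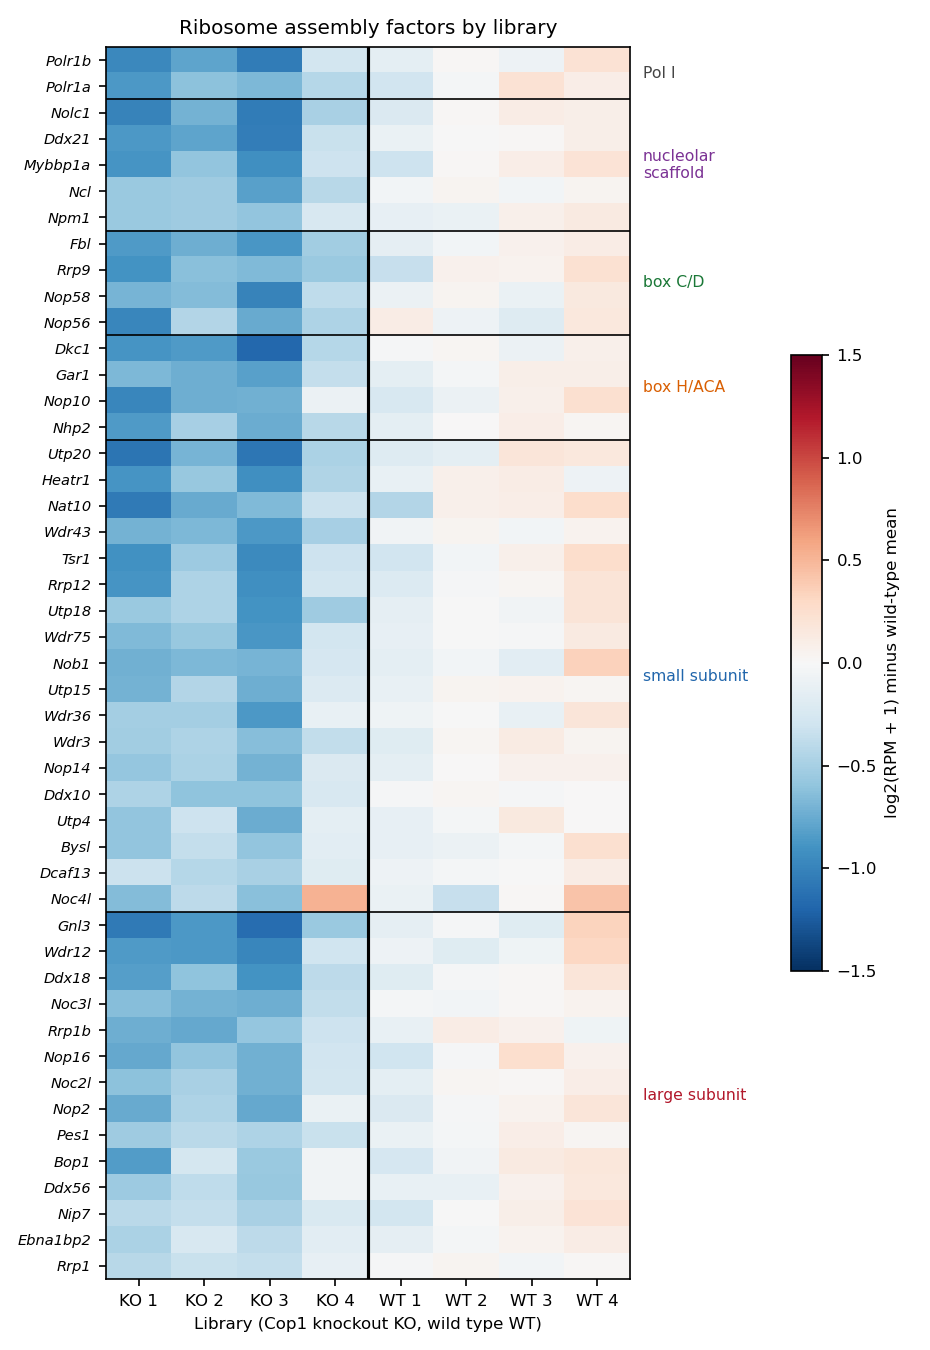
Level of each of the 47 factors (rows, grouped by step) in each library (columns, 4 Cop1 knockout on the left and 4 wild type on the right), as log2(RPM + 1) minus the wild-type mean, from junctions without dropped values. Blue is below and red above the wild-type mean; knockout columns are blue or near white except for Noc4l in library 4, and library 4 is the palest knockout column in most rows.

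Library by library, 37 of the 47 factors had every knockout library below every wild-type library once dropped values were left out (18.6% of all genes did), and 30 did so over all junctions (15.4%). Against the wild-type library with the same number, knockout was lower in all 4 pairs for 46 factors (32.8% of all genes), with Noc4l the exception, and over all junctions for 36 (28.7%). Knockout library 4 was the highest knockout library for 45 factors (40.0% of all genes), all but Nop56 and Utp18. Wild-type library 4 was the highest wild-type library for 32 factors (37.1%). Since 45 and 32 are counts over genes that share libraries, they describe the 2 libraries numbered 4 and are not tests.

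The same direction was seen at single junctions. Of the junctions of the 47 factors, 553 had a mean of at least 50 reads and no dropped value, and in all 553 the knockout mean was below the wild-type mean, where 63.0% of 55653 such junctions of all genes were. The groups did not overlap at 345 of the 553, or 62.4%, where 19.2% of junctions of all genes had every knockout library lower. The median log2 ratio of knockout to wild type was -0.61, beside -0.13 over junctions of all genes. It ran from -1.22, at the junction of exon blocks 57 and 58 of Utp20, to -0.05, at that of blocks 30 and 31 of the same gene. Nop56 had no junction that met both conditions. Junctions of 1 gene share reads and the genes were chosen with results known, so these shares describe the set.

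**Figure D2:**
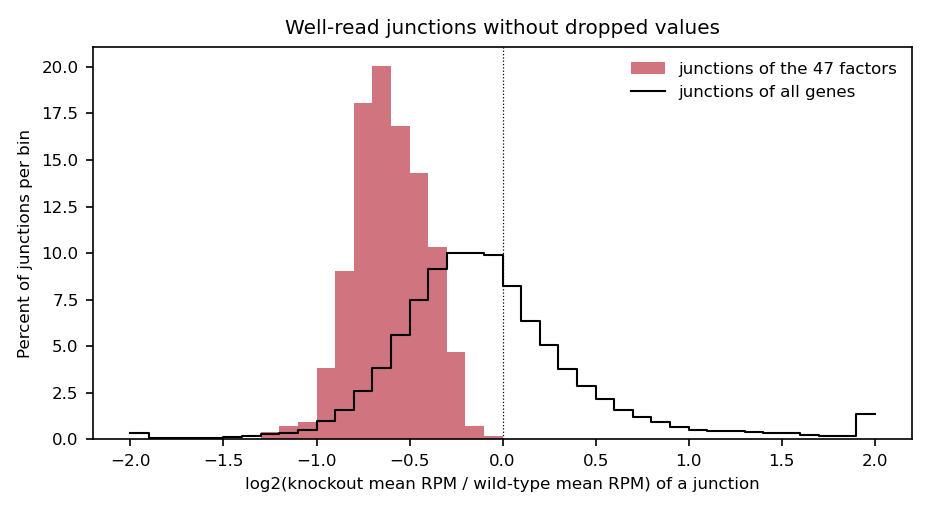
Percent of well-read junctions without dropped values (vertical axis) by log2 ratio of the knockout to the wild-type mean (horizontal axis, bins of 0.1; the end bins collect values beyond -2 and 2). Red bars are the 553 junctions of the 47 factors and the black line is the 55653 junctions of all genes; the red bars lie left of 0, around -0.61.

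Promoter windows were examined because the factors moved together. RefSeq windows on GRCm38.p6, 250 bases before to 50 after the transcription start, were matched by symbol for 41 of the 47 factors, with Npm1, Fbl, Rrp12, Wdr36, Dcaf13 and Bop1 unmatched. The E-box CACGTG, a palindrome that reads the same on both strands and is the textbook site of MYC and its partner MAX, occurred in the windows of 8 factors, or 19.5% of 41, beside 12.1% of genes tested and 8.09% of all genes with a window. Those 8 were Nop2, Utp18, Pes1, Utp4, Wdr43, Tsr1, Utp20 and Mybbp1a. The 4 windows printed here show the 2 with the motif before the start, Nop2 and Utp18, and 2 with it after the start, Wdr43, which had the smallest adjusted p of the small subunit factors, and Utp20, which had their largest fall. Capitals mark CACGTG, each sequence runs 5′ to 3′ on the strand of its gene, and the first base of the motif lies at -60 in Nop2 (chr6:125131633-125131932, plus strand), -20 in Utp18 (chr11:93885717-93886016, minus strand), 18 in Wdr43 (chr17:71615965-71616264, plus strand) and 38 in Utp20 (chr10:88826765-88827064, minus strand), counted from the start.
Nop2: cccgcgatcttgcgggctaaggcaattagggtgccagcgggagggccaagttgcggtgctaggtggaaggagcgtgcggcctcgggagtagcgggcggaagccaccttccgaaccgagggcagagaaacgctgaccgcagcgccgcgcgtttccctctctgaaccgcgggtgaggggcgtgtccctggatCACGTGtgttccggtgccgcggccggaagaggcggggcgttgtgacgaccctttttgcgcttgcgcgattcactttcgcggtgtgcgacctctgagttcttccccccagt
Utp18: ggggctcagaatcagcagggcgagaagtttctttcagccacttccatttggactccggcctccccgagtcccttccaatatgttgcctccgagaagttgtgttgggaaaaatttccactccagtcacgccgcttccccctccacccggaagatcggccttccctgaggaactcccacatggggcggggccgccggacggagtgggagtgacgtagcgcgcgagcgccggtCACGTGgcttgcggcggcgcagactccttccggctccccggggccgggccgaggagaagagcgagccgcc
Wdr43: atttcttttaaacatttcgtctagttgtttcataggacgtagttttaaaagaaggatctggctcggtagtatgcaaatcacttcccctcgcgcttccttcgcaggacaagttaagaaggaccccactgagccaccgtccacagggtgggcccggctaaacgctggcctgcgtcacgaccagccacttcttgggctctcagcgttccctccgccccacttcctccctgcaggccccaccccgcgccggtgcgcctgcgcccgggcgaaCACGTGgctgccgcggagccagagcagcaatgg
Utp20: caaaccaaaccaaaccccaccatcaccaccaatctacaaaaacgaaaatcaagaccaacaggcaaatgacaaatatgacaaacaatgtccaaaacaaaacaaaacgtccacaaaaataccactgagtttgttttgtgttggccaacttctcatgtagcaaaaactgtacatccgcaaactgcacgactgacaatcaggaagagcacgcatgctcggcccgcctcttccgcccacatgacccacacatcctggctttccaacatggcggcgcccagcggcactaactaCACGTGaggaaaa
The median log2 fold change without dropped values was -0.65 over the 8 factors with CACGTG and -0.61 over the 33 without it. CCGGAAG, the core bound by ETS factors, was searched on both strands and stood in the windows of 14 factors, 34.1%, beside 21.7% of genes tested and 9.93% of all genes. TATAAA, also on both strands, stood in 2 factors, 4.88%, beside 8.16% and 15.7%. The median GC content was 58.3% for the windows of the factors, 60.7% for genes tested and 52.7% for all. A match is a description of the letters in the window and was not tested as a site.

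RNA polymerase I copies the ribosomal DNA, and both of its listed subunits fell, to 62.4% of wild type over junctions without dropped values. Polr1a, the largest subunit (chromosome 6, 71909053 to 71984935), had 98.6, 118, 113 and 134 RPM in knockout libraries 1 to 4, against 148, 177, 209 and 194 RPM in wild-type libraries 1 to 4. For Polr1a, the log2 fold change was -0.64 (adjusted p = 0.0134, SE 0.13). Polr1b, the second largest (chromosome 2, 129100995 to 129126594), had 33.7, 38.0, 34.6 and 54.9 RPM in knockout libraries 1 to 4, against 60.2, 67.5, 63.0 and 77.6 RPM in wild-type libraries 1 to 4. For Polr1b, the log2 fold change was -0.74 (adjusted p = 0.0176, SE 0.17). In both genes the highest knockout library, number 4, stayed below the lowest wild-type library, number 1. The call of Polr1b ended without knockout library 3 (adjusted p = 0.0543), and that of Polr1a when only its most-read junction was used (adjusted p = 0.0520).

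Of the 5 nucleolar scaffold and general factors, 4 fell, and all 5 did without dropped values, when their sum stood at 65.1% of wild type. Most of that sum was Ncl, with a mean of 1778 of 2490 RPM in knockout and 2649 of 3822 RPM in wild type. Ncl, nucleolin, a major RNA-binding protein of the nucleolus (chromosome 1, 86344719 to 86359400), had 1798, 1825, 1508 and 1983 RPM in knockout libraries 1 to 4, against 2569.8, 2715, 2576 and 2735 RPM in wild-type libraries 1 to 4. The wild-type libraries lay close together, every knockout library was below them, and the log2 fold change was -0.58 (adjusted p = 0.00459, SE 0.09). Nolc1, a chaperone of small nucleolar RNA particles (chromosome 19, 46075863 to 46085530), had 171, 209.8, 167 and 245 RPM in knockout libraries 1 to 4, against 297, 350.4, 372 and 366 RPM in wild-type libraries 1 to 4, again without overlap, and a log2 fold change of -0.81 (adjusted p = 0.00713, SE 0.14). Ddx21, an RNA helicase that works in transcription of ribosomal DNA and in processing, had -0.76 (adjusted p = 0.00943, SE 0.14) and no overlap. Mybbp1a, a nucleolar binding partner of MYB, had -0.69 (adjusted p = 0.00772, SE 0.12). Among its 25 junctions, 12 held a dropped value; without them the log2 fold change was -0.68 (adjusted p = 0.0147, SE 0.16), and knockout library 4 overlapped the lowest wild-type library.

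Npm1 (nucleophosmin, chromosome 11, 33152287 to 33163206) gave no call as deposited but was lower once dropped junctions were set aside. Over all 13 junctions it had 295, 238, 294 and 262 RPM in knockout libraries 1 to 4, against 585, 321, 88.6 and 330.1 RPM in wild-type libraries 1 to 4. For Npm1, the log2 fold change was -0.01 (adjusted p = 0.995, SE 0.49). These sums followed a few junctions that were read in some libraries and nearly empty in others. The junction of blocks 1 and 2 held 1, 3131, 1 and 4298 reads in knockout libraries 1 to 4, against 5296, 4579, 1 and 4238 reads in wild-type libraries 1 to 4. That of blocks 2 and 3 held 5362 reads in wild-type library 1 and 1 to 4 reads in the other 7 libraries, and that joining blocks 9 and 12 held 4887 and 4102 reads in knockout libraries 1 and 3 and at most 2 in the other 6. At the first of these junctions both groups held libraries with full reads and libraries with 1 read. Over the 9 remaining junctions Npm1 had 56.4, 57.5, 55.2 and 70.7 RPM in knockout libraries 1 to 4, against 76.6, 78.0, 88.0 and 91.7 RPM in wild-type libraries 1 to 4. All knockout libraries were then below all wild-type libraries, and the log2 fold change was -0.48 (adjusted p = 0.0104, SE 0.10). Most reads of the 9 junctions came from the one joining blocks 9 and 11. It held 918, 819, 879 and 1292 reads in knockout libraries 1 to 4, and 1281, 1169, 1354 and 1324 in wild-type libraries. Only 3 of the 9 averaged at least 50 reads. The junctions with the most reads were left out, so this call covers a minor part of the gene's signal. Intronless copies of Npm1 are known in the mouse genome, and how reads that fit both were counted is not given in the sources used here, so its level is uncertain.

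The box C/D particle guides methylation of ribosomal RNA, and the 4 proteins listed under it together stood at 61.4% of wild type. Fibrillarin, Fbl (chromosome 7, 28169710 to 28179269), is its methyltransferase and had 253, 275, 250.3 and 319 RPM in knockout libraries 1 to 4, against 416, 445, 478 and 495 RPM in wild-type libraries 1 to 4. The groups were far apart, and the log2 fold change was -0.74 (adjusted p = 0.00315, SE 0.10). Nop58, a core protein that binds the guide RNA (chromosome 1, 59684971 to 59719044), had 310.1, 319.7, 249.9 and 386 RPM in knockout libraries 1 to 4, against 472, 515, 468 and 556 RPM in wild-type libraries 1 to 4. For Nop58, the log2 fold change was -0.68 (adjusted p = 0.0106, SE 0.13). Both genes carried no dropped value, and in both, knockout library 3 was the lowest of the 8. With all junctions these 2 of the 4 were called, and without dropped values all 4 were.

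Nop56 and Rrp9 were the other 2 proteins listed under the particle. Nop56, the partner of Nop58 (chromosome 2, 130274430 to 130279313), had 45.7, 7.62, 14.0 and 37.7 RPM in knockout libraries 1 to 4, against 24.8, 56.2, 9.21 and 32.6 RPM in wild-type libraries 1 to 4 over 17 junctions, with values that overlapped widely and a log2 fold change of -0.28 (adjusted p = 0.809, SE 0.66). Its junction within exon block 9 (parts 2 and 7) held 548 reads in knockout library 1 and 1 or 2 in the rest, and that of blocks 3 and 4 held 643 reads in wild-type library 2 and 1 or 2 in the rest. Over the 12 junctions without a dropped value it had 4.68, 7.27, 5.63 and 7.12 RPM in knockout libraries 1 to 4, against 11.2, 9.61, 8.78 and 11.6 RPM in wild-type libraries 1 to 4, with no overlap and a log2 fold change of -0.66 (adjusted p = 0.0187, SE 0.17). This call ended without knockout library 3 or wild-type library 1 (adjusted p 0.0524 to 0.0542). Rrp9, which belongs to the U3 particle alone, had 30.2, 60.8, 44.9 and 67.2 RPM in knockout libraries 1 to 4, against 72.0, 107, 59.8 and 61.2 RPM in wild-type libraries 1 to 4. For Rrp9, the log2 fold change was -0.58 (adjusted p = 0.177, SE 0.28). Over its 4 junctions without a dropped value, of 14, it had 5.75, 7.15, 6.97 and 7.61 RPM in knockout libraries 1 to 4, against 8.91, 12.2, 12.1 and 13.8 RPM in wild-type libraries 1 to 4. The groups no longer overlapped, and the log2 fold change was -0.69 (adjusted p = 0.0133, SE 0.16). For Nop56 and Rrp9 the calls without dropped values cover a minor part of the gene's signal. Of those junctions, 0 of Nop56 and 1 of Rrp9 averaged at least 50 reads.

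The box H/ACA particle guides pseudouridylation, and its core also sits in telomerase. Its 4 proteins stood at 62.9% of wild type, and 2 were called with all junctions and 4 without dropped values. Dkc1, dyskerin, the pseudouridine synthase (chromosome X, 75095854 to 75109777), had 92.4, 73.3, 81.6 and 83.8 RPM in knockout libraries 1 to 4, against 127, 112, 145 and 121 RPM in wild-type libraries 1 to 4. No knockout library reached a wild-type library, and the log2 fold change was -0.60 (adjusted p = 0.00808, SE 0.11), or -0.83 (adjusted p = 0.00463, SE 0.14) over the 15 of its 20 junctions without a dropped value. Nhp2 (chromosome 11, 51619735 to 51623714), a core RNA-binding protein, had 112, 142, 119.6 and 151 RPM in knockout libraries 1 to 4, against 182, 203, 217 and 206 RPM in wild-type libraries 1 to 4. Its groups did not overlap, and the log2 fold change was -0.63 (adjusted p = 0.00828, SE 0.11). Gar1, the protein that helps release the modified RNA, had 52.6, 56.3, 31.3 and 43.7 RPM in knockout libraries 1 to 4, against 49.8, 93.7, 97.9 and 37.4 RPM in wild-type libraries 1 to 4, widely spread, and a log2 fold change of -0.51 (adjusted p = 0.314, SE 0.33). Over 3 of its 6 junctions it had 21.2, 20.3, 19.2 and 26.6 RPM in knockout libraries 1 to 4, against 31.0, 33.8, 36.8 and 36.7 RPM in wild-type libraries 1 to 4. These groups did not overlap, with a log2 fold change of -0.65 (adjusted p = 0.00581, SE 0.12). Nop10, the smallest core protein, was read over 1 junction and had 29.8, 35.6, 36.0 and 56.3 RPM in knockout libraries 1 to 4, against 50.4, 56.4, 63.4 and 71.1 RPM in wild-type libraries 1 to 4. Knockout library 4 overlapped wild type there, and the log2 fold change was -0.63 (adjusted p = 0.0550, SE 0.20), with adjusted p = 0.0116 with the replicate block and 0.0380 in the fit without dropped values. The call in the fit without dropped values was lost on leaving out any 1 of the 6 libraries other than knockout library 4 and wild-type library 1 (adjusted p 0.0718 to 0.0965), and when TMM scaling was used (0.0507).

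**Figure D3:**
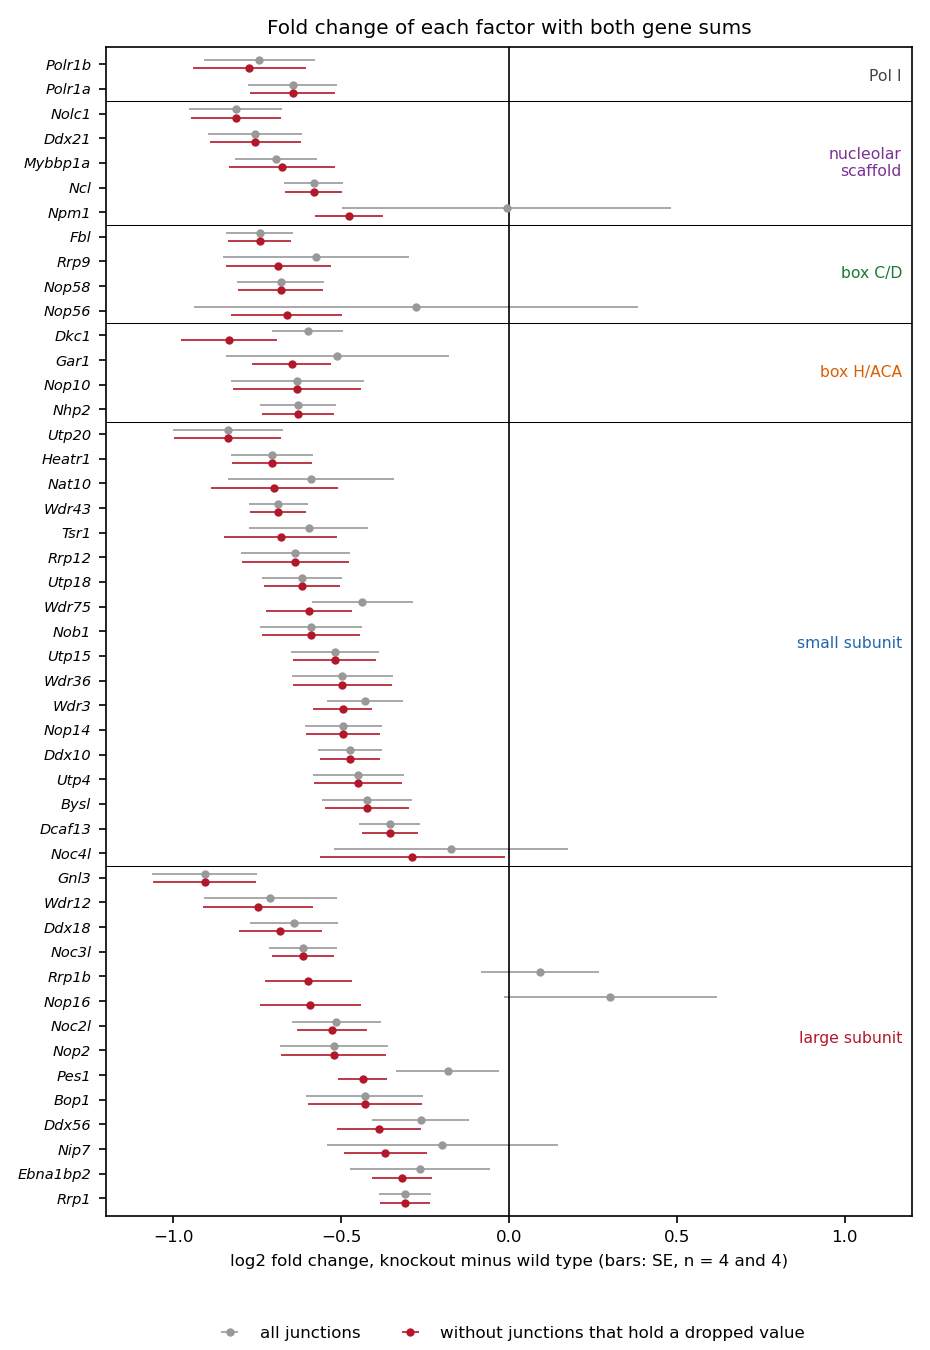
Log2 fold change, knockout minus wild type (horizontal axis), of each of the 47 factors (rows, by step) with its SE (bars, 4 libraries a group), from all junctions (grey) and from junctions without dropped values (red). All 47 red points lie left of 0, from -0.91 for Gnl3 to -0.29 for Noc4l, while the grey points of Nop16 and Rrp1b lie right of 0.

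Small subunit processing held the most factors, 18, of which 13 fell with all junctions and 17 without dropped values; their sum stood at 67.0% of wild type. Wdr43 and Heatr1, which belong to the complex that joins the nascent precursor first, had the smallest adjusted p of the step. Wdr43 (chromosome 17, 71615895 to 71659031), whose promoter is printed above, had 179, 184, 161 and 208 RPM in knockout libraries 1 to 4, against 283, 302, 285 and 306 RPM in wild-type libraries 1 to 4. The groups lay far apart relative to their spread, and the log2 fold change was -0.69 (adjusted p = 0.00288, SE 0.09). Heatr1 (chromosome 13, 12395027 to 12440289) had 196, 245, 192 and 265 RPM in knockout libraries 1 to 4, against 335, 384, 394 and 344 RPM in wild-type libraries 1 to 4, without overlap, and a log2 fold change of -0.71 (adjusted p = 0.00754, SE 0.12). Of the other members of that complex, Utp15 had -0.52 (adjusted p = 0.0266, SE 0.13), Utp4 had -0.45 (adjusted p = 0.0488, SE 0.14) and Wdr75 had -0.44 (adjusted p = 0.0732, SE 0.15). Wdr75 held a dropped value in 10 of 20 junctions. It had 59.4, 77.1, 61.6 and 95.1 RPM in knockout libraries 1 to 4, against 92.9, 98.6, 106 and 94.3 RPM in wild-type libraries 1 to 4 over all of them. Over the other 10 it had 43.1, 46.1, 37.1 and 56.8 RPM in knockout libraries 1 to 4, against 63.2, 68.6, 68.1 and 75.8 RPM in wild-type libraries 1 to 4, without overlap, and a log2 fold change of -0.59 (adjusted p = 0.0102, SE 0.13). Utp15 was no longer called on leaving out any 1 of the 6 libraries other than knockout library 4 and wild-type library 1 (adjusted p 0.0530 to 0.0724). Utp4 was no longer called on leaving out any 1 of the 7 libraries other than knockout library 4 (0.0719 to 0.117), with the replicate block (0.0515), with TMM scaling (0.0824), without the filter on low values (0.0571) and over the most-read junction alone (0.219).

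The second early complex, UTP-B, holds Utp18, Wdr3 and Wdr36. The log2 fold change of Utp18 was -0.62 (adjusted p = 0.0110, SE 0.12). Its highest knockout value, 76.4 RPM in library 2, lay below its lowest wild-type value, 96.7 RPM in library 1. Wdr3 had -0.43 (adjusted p = 0.0300, SE 0.11), a call lost on leaving out any 1 of the 6 libraries other than knockout library 4 and wild-type library 1 (adjusted p 0.0621 to 0.0785), and when TMM scaling was used (0.0523). It was -0.50 (adjusted p = 0.00513, SE 0.09) without 2 junctions that held a dropped value, and that call ended for no library left out. Wdr36 had 136, 135, 106 and 179 RPM in knockout libraries 1 to 4, against 185, 193, 178 and 219 RPM in wild-type libraries 1 to 4. Knockout library 4 reached the range of wild type, and the log2 fold change was -0.50 (adjusted p = 0.0504, SE 0.15), just short of the threshold. Its adjusted p was 0.0142 with the replicate block and 0.0348 in the fit without dropped values, a call lost on leaving out any 1 of the 7 libraries other than knockout library 4 (0.0517 to 0.0841).

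Among later small subunit factors, Utp20, a large scaffold of the precursor (chromosome 10, 88746607 to 88826804, promoter printed above), had the largest fall of the step. It had 109, 143, 109.9 and 168 RPM in knockout libraries 1 to 4, against 204, 211, 266 and 260.3 RPM in wild-type libraries 1 to 4, without overlap, and a log2 fold change of -0.84 (adjusted p = 0.0115, SE 0.16). Ddx10, an RNA helicase, had -0.47 (adjusted p = 0.0126, SE 0.10), and among the alternatives run its call ended over the most-read junction alone (adjusted p = 0.0565). Rrp12, which takes part in export of subunits, had -0.64 (adjusted p = 0.0286, SE 0.16). Nop14, a scaffold of the small subunit precursor, had -0.49 (adjusted p = 0.0205, SE 0.12), and Dcaf13, known in yeast as Sof1, had -0.35 (adjusted p = 0.0284, SE 0.09). Calls of these last 3 ended without single libraries: Rrp12 without any 1 of 5 (knockout 1 and 3, wild type 2, 3 and 4; adjusted p 0.0608 to 0.0742), Nop14 without any 1 of 4 (knockout 1 and 3, wild type 2 and 4; 0.0519 to 0.0559), and Dcaf13 on leaving out any 1 of the 7 other than knockout library 4 (0.0521 to 0.0791). Over the most-read junction alone, Rrp12 had adjusted p = 0.389 and Dcaf13 0.0609. Noc4l, the partner of Nop14, was the factor of the step that passed in neither fit. It had 66.6, 85.7, 62.2 and 183 RPM in knockout libraries 1 to 4, against 87.3, 75.5, 114 and 139.8 RPM in wild-type libraries 1 to 4, and knockout library 4 was the highest of all 8. Its log2 fold change was -0.17 (adjusted p = 0.770, SE 0.35), or -0.29 (adjusted p = 0.476, SE 0.28) without dropped values, where leaving out knockout library 4 gave -0.56 and adjusted p = 0.0361.

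Nob1, Tsr1, Bysl and Nat10 act on the nearly finished small subunit or its RNA. Nob1, the endonuclease that makes the final cut of the small subunit RNA, had -0.59 (adjusted p = 0.0289, SE 0.15), and Tsr1, which occupies the maturing particle, had -0.60 (adjusted p = 0.0457, SE 0.18). Nob1 lost its call without any 1 of 5 libraries (knockout 1, 2 and 3, wild type 2 and 4; adjusted p 0.0563 to 0.0798) and over the most-read junction alone (0.152). Tsr1 lost its call without any 1 of 5 (knockout 1 and 3, wild type 2, 3 and 4; 0.0990 to 0.118), with TMM scaling (0.0666), without the filter on low values (0.0528) and over the most-read junction alone (0.0655). Bysl, a factor of the maturing small subunit, had 35.2, 41.5, 35.2 and 47.7 RPM in knockout libraries 1 to 4, against 49.0, 50.2, 52.2 and 63.1 RPM in wild-type libraries 1 to 4. The groups did not overlap, yet its log2 fold change was -0.42 (adjusted p = 0.0555, SE 0.13). Its adjusted p was 0.0229 with the replicate block and 0.0354 in the fit without dropped values, which was lost on leaving out any 1 of the 7 libraries other than knockout library 4 (0.0524 to 0.0969), and when TMM scaling was used (0.0528). Nat10, an RNA cytidine acetyltransferase, held a dropped value in 18 of 29 junctions and had 58.8, 89.3, 70.5 and 89.5 RPM in knockout libraries 1 to 4, against 71.5, 136, 114 and 156 RPM in wild-type libraries 1 to 4. Over the other 11 it had 26.8, 33.1, 35.7 and 45.3 RPM in knockout libraries 1 to 4, against 41.6, 60.1, 60.9 and 68.3 RPM in wild-type libraries 1 to 4. Knockout libraries 2 and 4 were above wild-type library 1 over all junctions, and knockout library 4 over the 11. The log2 fold change was -0.59 (adjusted p = 0.127, SE 0.25) over all junctions, with adjusted p = 0.0125 with the replicate block, and -0.70 (adjusted p = 0.0250, SE 0.19) over the 11. The last call was lost on leaving out any 1 of the 6 libraries other than knockout library 4 and wild-type library 1 (0.0588 to 0.0666).

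As a count, the small subunit step was 5 of 18 without knockout library 1 or 3 or wild-type library 2 or 4, and 7 and 8 without wild-type library 3 and knockout library 2. Without dropped values it was 10 of 18 without knockout library 1 or 3. Without both libraries numbered 4 it was 16 of 18 over all junctions (14.1% of all genes) and 18 of 18 without dropped values (20.6%). Over all genes, 706 to 1742 of 10939 to 11030 were lower on leaving out each library. Without dropped values these were 1233 to 2367 of 10823 to 10922.

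In large subunit processing, 6 of 14 factors fell with all junctions and 12 of 14 without dropped values, when the sum stood at 69.9% of wild type. More of its genes, 9 of 14, held dropped values than in any other step. Gnl3, nucleostemin, a nucleolar GTPase best known from stem and cancer cells (chromosome 14, 31012433 to 31019152), had 158, 182, 149.6 and 224 RPM in knockout libraries 1 to 4, against 302, 328, 292 and 416 RPM in wild-type libraries 1 to 4. Every knockout library was below every wild-type library, and the log2 fold change, -0.91 (adjusted p = 0.00769, SE 0.16), was the largest fall of the 47. Noc3l (chromosome 19, 38788128 to 38819237) had 46.4, 44.3, 43.4 and 56.1 RPM in knockout libraries 1 to 4, against 71.2, 71.0, 73.8 and 75.7 RPM in wild-type libraries 1 to 4. The spread within groups was small, the groups did not overlap, and the log2 fold change was -0.61 (adjusted p = 0.00615, SE 0.10), a call that among the alternatives run ended over the most-read junction alone (adjusted p = 0.0501). Noc2l, which pairs with Noc3l in yeast, had -0.51 (adjusted p = 0.0282, SE 0.13), and Ddx18, an RNA helicase, had -0.64 (adjusted p = 0.0132, SE 0.13). Rrp1 had the smallest fall among called factors, -0.31 (adjusted p = 0.0270, SE 0.08). The call of Noc2l ended without any 1 of 5 libraries (knockout 1 and 3, wild type 2, 3 and 4; adjusted p 0.0618 to 0.0733). That of Rrp1 ended on leaving out any 1 of the 6 other than knockout library 4 and wild-type library 3 (0.0610 to 0.0754), and when TMM scaling was used (0.0538). The count of the step was 3 without knockout library 1 or 3 or wild-type library 2 or 4. On leaving out each library, 706 to 1742 of 10939 to 11030 genes were lower.

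Pes1, Bop1 and Wdr12 form the PeBoW complex, which is needed to process the RNA of the large subunit. Wdr12 had -0.71 (adjusted p = 0.0381, SE 0.20), a call lost on leaving out any 1 of the 6 libraries other than knockout library 4 and wild-type library 1 (adjusted p 0.0708 to 0.0907), and when TMM scaling was used (0.0511); over junctions without dropped values it was -0.75 (adjusted p = 0.0111, SE 0.16), and no single library ended it. Pes1 had 159, 225, 203 and 216 RPM in knockout libraries 1 to 4, against 219, 178, 265 and 250.1 RPM in wild-type libraries 1 to 4, in overlapping groups, and -0.18 (adjusted p = 0.443, SE 0.15). Over its 9 junctions without a dropped value, of 16, it had 98.5, 108, 104 and 113 RPM in knockout libraries 1 to 4, against 134, 141, 154 and 146 RPM in wild-type libraries 1 to 4. These groups were apart, and the log2 fold change was -0.44 (adjusted p = 0.00415, SE 0.07). Bop1 held no dropped value and had 115, 171, 139 and 197 RPM in knockout libraries 1 to 4, against 173, 197, 226 and 231 RPM in wild-type libraries 1 to 4, with an overlap through knockout library 4. Its log2 fold change was -0.43 (adjusted p = 0.118, SE 0.17), and it passed with the replicate block (adjusted p = 0.0344) and without knockout library 4 (0.0373).

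Nop16 and Rrp1b changed sign between the sums. Nop16, a factor named after its yeast counterpart (chromosome 13, 54584185 to 54590090), had 24.1, 43.7, 49.4 and 56.7 RPM in knockout libraries 1 to 4, against 20.8, 42.6, 30.8 and 45.6 RPM in wild-type libraries 1 to 4 over 4 junctions and a log2 fold change of 0.30 (adjusted p = 0.546, SE 0.32). Its junction of blocks 2 and 3 held 1, 245, 212 and 406 reads in knockout libraries 1 to 4, against 2, 1, 3 and 1 reads in wild-type libraries 1 to 4. The single junction without a dropped value gave 14.4, 16.5, 15.0 and 20.5 RPM in knockout libraries 1 to 4, against 20.4, 25.0, 30.3 and 26.4 RPM in wild-type libraries 1 to 4. On that junction knockout library 4 met wild-type library 1 and the other knockout libraries were lower, with a log2 fold change of -0.59 (adjusted p = 0.0200, SE 0.15), a call that ended without knockout library 1 or 3 (adjusted p 0.0549 to 0.0588). Rrp1b, a paralog of Rrp1 (chromosome 17, 32036100 to 32062865), had 31.4, 48.7, 42.3 and 46.2 RPM in knockout libraries 1 to 4, against 35.0, 35.2, 36.6 and 50.9 RPM in wild-type libraries 1 to 4 over 17 junctions and a log2 fold change of 0.09 (adjusted p = 0.754, SE 0.17). Over the 8 without a dropped value it had 11.4, 11.1, 12.8 and 15.7 RPM in knockout libraries 1 to 4, against 18.1, 21.3, 20.6 and 18.7 RPM in wild-type libraries 1 to 4, without overlap, and a log2 fold change of -0.60 (adjusted p = 0.0107, SE 0.13). These 8 held a mean of 12.7 of 42.1 RPM in knockout and 19.7 of 39.4 RPM in wild type. Only 2 of them averaged at least 50 reads.

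**Figure D4:**
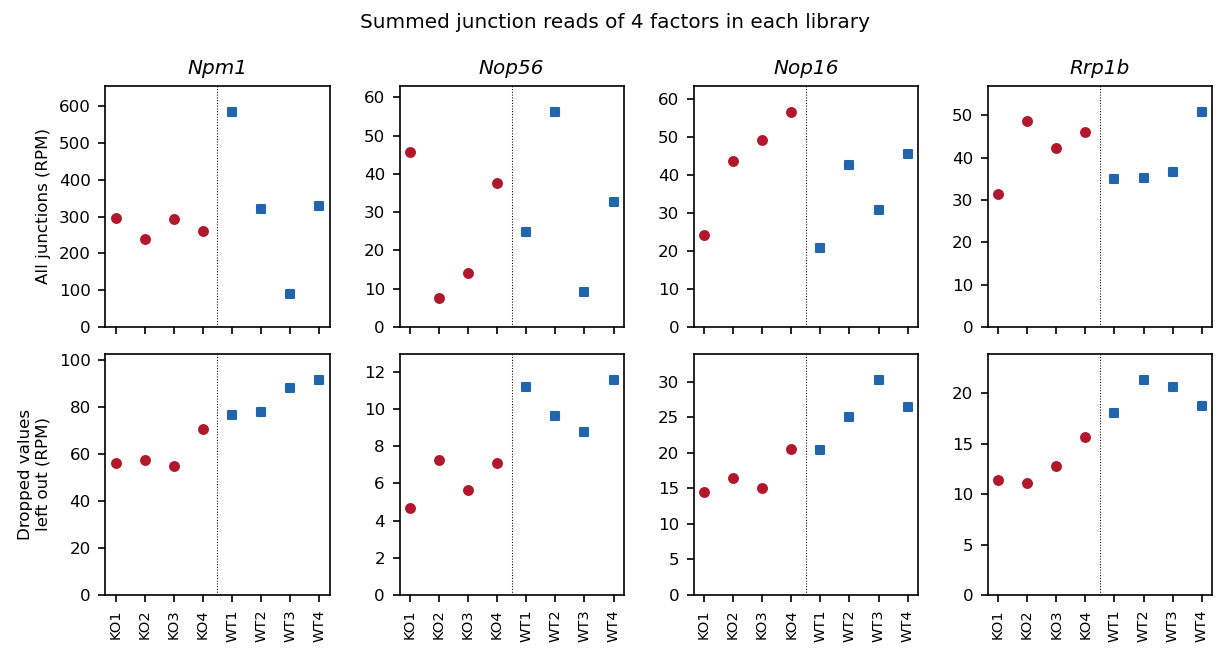
Summed junction RPM (vertical axis) of Npm1, Nop56, Nop16 and Rrp1b in each library (horizontal axis; knockout 1 to 4 as red circles, wild type 1 to 4 as blue squares), over all junctions (top row) and over junctions without dropped values (bottom row). In the top row the groups mix; in the bottom row knockout lies below wild type in Npm1, Nop56 and Rrp1b, and knockout 4 meets wild type 1 in Nop16.

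The remaining large subunit factors were Nop2, Ebna1bp2, Ddx56 and Nip7. Nop2, an RNA methyltransferase with the promoter printed above (chromosome 6, 125131909 to 125144753), had 133, 164, 132 and 210.1 RPM in knockout libraries 1 to 4, against 194, 223, 233 and 255 RPM in wild-type libraries 1 to 4. Only knockout library 4 reached wild-type values, and the log2 fold change was -0.52 (adjusted p = 0.0514, SE 0.16), with adjusted p = 0.0160 with the replicate block and 0.0361 in the fit without dropped values. The second call was lost on leaving out any 1 of the 6 libraries other than knockout library 4 and wild-type library 1 (0.0691 to 0.0982), and when TMM scaling was used (0.0509). Ebna1bp2, known as a partner of a viral nuclear protein, had 79.8, 94.3, 84.6 and 99.6 RPM in knockout libraries 1 to 4, against 102, 109, 115 and 120.5 RPM in wild-type libraries 1 to 4 over 5 of 8 junctions. Groups were close but did not overlap, with a log2 fold change of -0.32 (adjusted p = 0.0302, SE 0.09), beside -0.27 (adjusted p = 0.410, SE 0.21) over all junctions. Ddx56, an RNA helicase, had 66.7, 74.4, 65.7 and 93.6 RPM in knockout libraries 1 to 4, against 90.3, 90.0, 102 and 109 RPM in wild-type libraries 1 to 4 over 11 of 14 junctions. Knockout library 4 overlapped wild type, with -0.39 (adjusted p = 0.0467, SE 0.12), beside -0.26 (adjusted p = 0.232, SE 0.14) over all junctions. Both calls rested on most libraries: that of Ebna1bp2 ended on leaving out any 1 of the 6 other than knockout library 4 and wild-type library 1 (0.0506 to 0.0839), that of Ddx56 on leaving out any 1 of the 7 other than knockout library 4 (0.0668 to 0.122), and both ended under TMM scaling (0.0611 and 0.0742). Nip7, an RNA-binding factor, had -0.20 (adjusted p = 0.733, SE 0.34), and -0.37 (adjusted p = 0.0553, SE 0.12) over 3 of 5 junctions, which passed with the block (adjusted p = 0.0363), over the most-read junction alone (0.0291), and without knockout library 4 (0.0402) or wild-type library 1 (0.0262).

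Some of the factors also carry small nucleolar RNA genes between their start and end. In Gencode M21, 7 of the 47 genes, or 14.9%, hold such a gene on their own strand (Nop58, Ncl, Nop56, Dkc1, Tsr1, Wdr43 and Gnl3, with 21 between them), beside 221 of 13247 genes of the table, or 1.67%. Without dropped values all 7 were lower, with a median log2 fold change of -0.68. Of the 199 other host genes tested, 54 were lower and 10 higher, with a median of -0.13. Over all genes in that fit, 17.1% were lower and 10.8% higher. Small nucleolar RNAs themselves were not measured by spliced junctions, and whether each lies in an intron was not checked.

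Per junction without a dropped value, the median level of the factors was 7.97 RPM over all libraries, at the 75.7th percentile of genes tested, whose median was 2.95 RPM.

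Many further ribosome assembly genes outside the 47 were also lower in knockout, and a few were higher. Of 132 further genes tested from 4 lists, 57 were lower, where 12.1% of all genes were, and 3 higher, where 8.49% were, with a median log2 fold change of -0.40 beside -0.07 over all genes. Without dropped values 81 of 130 were lower (17.1% of all genes) and 3 higher (10.8%), with a median of -0.42. With the replicate block over all junctions 68 were lower (15.7% of all genes) and 4 higher (12.3%). The count of lower genes was 29 without knockout library 3, 33 without wild-type library 2 or 4, 36 without knockout library 1 or 2 and 68 without knockout library 4 (15.9% of all genes). Over all genes, 706 to 1742 of 10939 to 11030 were lower on leaving out each library. The count of the further genes was 41 under TMM scaling (8.83% of all genes). Without dropped values it ran from 57 to 90 on leaving out each library (1233 to 2367 of 10823 to 10922 genes).

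For the 4 lists taken singly, the shares of all genes were 12.1% lower and 8.49% higher over all junctions, and 17.1% lower without dropped values. They were 15.7% lower with the replicate block and 8.83% under TMM scaling. On leaving out each library, 706 to 1742 of 10939 to 11030 genes were lower. Among other genes of RNA polymerase I and ribosomal DNA, 3 of 12 were lower and 1 higher, the latter near its background share. Without dropped values 5 were lower, as well as with the replicate block. Ubtf, which shapes active ribosomal DNA, had -0.55 (adjusted p = 0.00685, SE 0.09), and Tcof1, treacle, had -0.76 (adjusted p = 0.00782, SE 0.13). Taf1c, a subunit of the factor that brings RNA polymerase I to its promoter, had -0.56 (adjusted p = 0.0369, SE 0.16), a call that was lost on leaving out any 1 of the 7 libraries other than wild-type library 1 (adjusted p 0.0504 to 0.0979), and with TMM scaling (0.0575). Other small subunit factors were lower in 19 of 41 and higher in 1, with 13 to 21 lower on leaving out each library. Sdad1, counted in this list although known as a large subunit factor, fell most among those named, with -1.0 (adjusted p = 9.04e-04, SE 0.09). Dhx37, a helicase, had -0.57 (adjusted p = 0.00470, SE 0.09). Other large subunit factors were lower in 22 of 49 and higher in 1, among them Rpf2 with -0.91 (adjusted p = 0.00569, SE 0.15) and the helicase Ddx27 with -0.62 (adjusted p = 0.00584, SE 0.10). That count was 9 to 12 on leaving out any 1 of the 6 libraries other than knockout library 4 and wild-type library 1, and 12 under TMM scaling. Of the snoRNP and RNA exosome genes, 13 of 30 were lower and 0 higher, Exosc9, an exosome subunit, with -0.42 (adjusted p = 0.0101, SE 0.08), a call lost over the most-read junction alone (adjusted p = 0.05004). The count of this list was 5 without knockout library 3, 6 without wild-type library 2, and 8 without knockout library 1 or wild-type library 4.

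The 3 higher genes of these lists are named because they are few, after their values were seen. Riok3, a kinase of the RIO family, had 0.72 (adjusted p = 0.00814, SE 0.13), and its call ended for no single library left out. Zfp622, a zinc finger protein known for its yeast counterpart in large subunit maturation, had 0.44 (adjusted p = 0.0222, SE 0.10), a call lost without any of 6 libraries, the exceptions being knockout library 4 and wild-type library 1 (adjusted p 0.0502 to 0.0637), and over the most-read junction alone (0.0533). Baz2a, a subunit of the complex that silences ribosomal DNA, had 0.30 (adjusted p = 0.0394, SE 0.08), a call lost without any of 7 libraries, the exception being knockout library 4 (0.0650 to 0.106), and over the most-read junction alone (0.134). These lists were chosen with earlier results of these data known.

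Other gene groups differed between the same libraries, and their part in the change of the ribosome factors was not tested. Over junctions without dropped values, genes of DNA replication summed to 2767, 3101, 2579 and 2763 RPM in knockout libraries 1 to 4, against 4399, 4506, 4413 and 4083 RPM in wild-type libraries 1 to 4. Of the 12, 8 were lower over all junctions (12.1% of all genes) with a median of -0.70. Neutrophil granule genes, a list in which not all genes encode granule proteins, summed to 5846, 12540, 6530 and 618 RPM in knockout libraries 1 to 4, against 75.0, 75.2, 144 and 40.8 RPM in wild-type libraries 1 to 4. Of the 14, 8 were higher over all junctions (8.49% of all genes) with a median of 3.77, or 10 with the replicate block (12.3%) and 13 without knockout library 4 (11.4%). Knockout library 4, which had the most ribosome factor RNA of its group, had the least granule RNA, while its replication genes stood within the range of knockout libraries 1 to 3. Erythroid markers summed to 61.1, 45.6, 121 and 428 RPM in knockout libraries 1 to 4, against 394, 262, 370.5 and 549.8 RPM in wild-type libraries 1 to 4. Of the 12 myeloid and progenitor markers, 6 were higher (8.49% of all genes) and 1 lower (12.1%), and the replicate block gave 8 higher (12.3%) and 2 lower (15.7%). The median log2 fold change of the 12 was 0.94, so the lower markers named next do not stand for the list. The count of higher markers was 2 or 3 without knockout library 1, 2 or 3 or wild-type library 1, 2 or 4. Over all genes, 509 to 1249 of the 10939 to 11030 tested were higher on leaving out each library. The 1 lower marker in the fit without the block was Cd34, a progenitor marker, with -1.56 (adjusted p = 0.0332, SE 0.42), a call lost on leaving out any 1 of 5 libraries (knockout 1 and 2, wild type 2, 3 and 4; 0.0562 to 0.0816). With the block Kit, the receptor of stem cell factor, was the second, with adjusted p = 0.0413, beside -0.58 (adjusted p = 0.528, SE 0.58) without it. Mki67, the proliferation marker, had -0.18 (adjusted p = 0.388, SE 0.14).

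Myc, the transcription factor known to activate many of these genes, had 57.6, 55.6, 54.6 and 38.0 RPM in knockout libraries 1 to 4, against 86.3, 95.4, 87.0 and 64.8 RPM in wild-type libraries 1 to 4. The groups did not overlap, both libraries numbered 4 were the lowest of their group, and the log2 fold change was -0.69 (adjusted p = 0.0237, SE 0.17). The call ended without knockout library 3 or wild-type library 1, 2 or 3 (adjusted p 0.0527 to 0.0670) and with TMM scaling (0.0509), and with the replicate block the adjusted p was 0.00417. Of the 11 genes tested of the MYC network, 1 was lower (12.1% of all genes) and 2 higher (8.49%), so the lower count was no larger than the background. With the replicate block 2 were lower (15.7% of all genes), Myc and Mycn, a relative of Myc (adjusted p = 0.0486), and under TMM scaling 0 were (8.83%). The 2 higher genes were Mxd1, a competitor of MYC for MAX, with 2.55 (adjusted p = 9.94e-04, SE 0.23), and Mxi1, another such competitor, with 2.12 (adjusted p = 0.00225, SE 0.25), or 1.04 without dropped values.

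**Figure D5:**
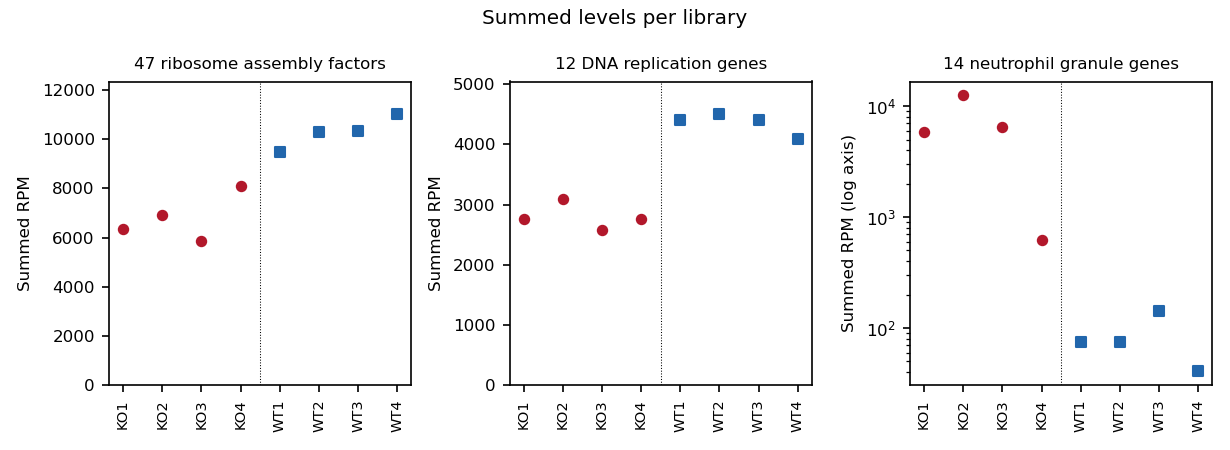
Summed RPM per library from junctions without dropped values (vertical axes; the right one is a log axis) of the 47 ribosome assembly factors, 12 DNA replication genes and 14 neutrophil granule genes, with knockout 1 to 4 as red circles and wild type 1 to 4 as blue squares. Knockout is below wild type in the left and middle panels and above it in the right panel, where knockout library 4 is the lowest of its group at 618 RPM.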

How the data were processed

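RNA of 8 FT1CL libraries, 4 Cop1 knockout and 4 wild type, was sequenced; per the labels' protocols 2 µg of total RNA entered each strand-specific library with inserts of 200 bp. The submitters' processing notes name Trimmomatic 0.39, kallisto and mm10; how junctions were aligned, annotated and filtered is not given in the sources used here. The authors deposited a normalised signal per junction, with AltAnalyze junction identifiers per the file header, covering 134051 junctions and 13378 genes. The values themselves show that this signal is reads plus 1, divided by the library total and by 60 nt, and that a junction without reads takes a floor of 0.854 in the 8 libraries; above the floor, 100% of values gave whole reads within 0.001 of a read.

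From these, reads were summed per gene and scaled to junction reads per 1000000 of the library (RPM). Fragments over more than 1 junction are counted more than once, so levels were compared between genes only per junction. Symbols were matched for 13247 genes, and coordinates come from Gencode M21 (GRCm38). Genes that averaged at least 1 RPM were tested with limma 3.58.1 in R 4.3.3 on log2(RPM + 1), moderated with trend and robust options, and with Benjamini-Hochberg adjustment over 11003 genes at a threshold of 0.05. Fold changes are knockout minus wild type on that scale. A dropped value held at most 6 reads where the gene's other junctions, by the library with the highest share at that junction, predicted at least 100; this held for 36533 values in 12037 junctions of 3799 genes. A second fit left out every junction with such a value in any library, in 10894 genes tested.

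The members and gene lists were chosen with earlier results of these data known, so list counts and medians are descriptions with no test of a list. All factors may be named; values per library are given for the 2 of each step with the smallest adjusted p, those whose call or direction depends on dropped values, and Npm1. Same-numbered libraries deviated together (correlations 0.254, 0.263, 0.299 and 0.499 for numbers 1 to 4; at most 0.124 for other pairs). The labels do not say what the numbers stand for, so a pairing of the samples is not established. The blocked fit is an alternative, given where it changes the call of a factor or moves the count of a list by over 1.5 times. Libraries of a group were not duplicates (chi-square per degree of freedom at least 30.8).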

Additional observations from a re-analysis of the deposited data

Results flagged for a closer look

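Within each group of 4 libraries, 188 sets of values (47 factors, 2 groups and 2 kinds of sums) were examined for a library far from the other 3, by Dixon's ratio of the gap to the whole range. The 9 sets found are described below. Chance flags about 1 in 20 such groups, but the sets are not separate: all come from the same 8 libraries, and the 26 factors with no dropped value enter both kinds of sums with equal values, so the number found is not read against that rate.

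In all 4 sets found without dropped values, knockout library 4 stood above knockout libraries 1 to 3. Without dropped values Npm1 stood at 70.7 RPM, beside 55.2 to 57.5 RPM in libraries 1 to 3, Noc4l 102 RPM and 44.7 to 53.8 RPM, and Wdr12 79.9 RPM and 49.8 to 54.5 RPM. Nob1 had 72.7 RPM in knockout library 4 and 52.3 to 54.2 RPM in the other 3, in both kinds of sums, since it held no dropped value. Over all junctions Mybbp1a had 249 RPM in knockout library 3 and 306 to 315 RPM in the other knockout libraries. In wild type, over all junctions, Tsr1 had 87.1 RPM in library 1 and 112 to 116 RPM in the rest, Rrp1b 50.9 RPM in library 4 and 35.0 to 36.6 RPM in the rest, and Ddx56 123 RPM in library 4 and 101 to 102 RPM in the rest. The part of the libraries numbered 4 in the fold changes is given in the report by leaving them out; no cause was tested.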

How the results depend on the processing

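The direction of the count held under every alternative that was run: 17 to 36 of the 47 factors were lower over all junctions on leaving out each library in turn, 31 to 47 without dropped values, and 0 higher in each. The factors' median ran from -0.64 to -0.49 over all junctions and from -0.70 to -0.55 without dropped values. Over all genes, leaving out each library gave 706 to 1742 lower and 509 to 1249 higher, or 1233 to 2367 and 762 to 1559 without dropped values. By step, leaving out each library gave 1 to 2 RNA polymerase I subunits (2 without dropped values), 4 scaffold factors (5), 2 box C/D proteins (3 to 4), 2 to 3 box H/ACA proteins (3 to 4), 5 to 16 small subunit factors (10 to 18) and 3 to 9 large subunit factors (8 to 14).

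Without dropped values 44 factors were lower, with 4 box C/D, 4 box H/ACA and 12 large subunit factors. Adding the replicate block gave 46 factors, 4, 4 and 14 in those steps, and 2508 genes lower and 1769 higher. Leaving out both libraries numbered 4 instead gave 46 factors, 4, 4 and 13, and 2220 genes lower and 1574 higher. Under TMM scaling without dropped values, 1428 genes were higher and 4 box C/D proteins lower. TMM over all junctions gave 972 lower and 1092 higher genes, beside 1330 and 934, a split that moved by over 10 percentage points. The most-read junction alone left 1 RNA polymerase I subunit called. With the replicate block over all junctions 34 factors were lower; its changes of single calls stand in the report, and no other call of a factor changed with it.

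Signs turned only for factors with dropped values, and the cause was not tested. Npm1 was 0.069 under TMM, 0.10 without both libraries numbered 4 and -0.54 to 0.36 on leaving out each library. On the same basis Nop56 ran from -0.74 to 0.17, Noc4l from -0.51 to 0.0023 and Nip7 from -0.49 to 0.048. Nop16 was -0.59 without dropped values, with the block added, and over its most-read junction; Rrp1b was -0.60, -0.60 and -0.53. The next counts do not cover the fits without dropped values that were combined with left-out libraries or TMM. Over the other alternatives, 741 values of single factors kept sign and side of the threshold. A further 79 lost the call, 56 gained it and 17 turned sign. The count-based tests planned on recovered reads, with 2 tools, were not run, because the unit check did not accept the recovery in knockout libraries 2 and 4. The fits without dropped values combined with left-out libraries or TMM were chosen after seeing the data.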
